A study of Mus musculus with 6 samples.

Results

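Described here are 9 genes of the retinoic acid pathway and the epicardium in the mouse heart: the synthesis enzymes Aldh1a1, Aldh1a2 and Aldh1a3, the nuclear receptors Rara, Rarb, Rarg and Rxra, the binding protein Crabp2 and the transcription factor Wt1. They were taken by symbol from a table of 18158 features, which lists all 9. The group was chosen on the TPM values of these same 6 hearts, in which Aldh1a2 and Wt1 were lower after treatment, so every difference between the groups for these genes is a description without a test. The RNA came from ventricles, 1 library for each of 6 mice, which were 3 months old and of the outbred CD1 stock. The vehicle group of 3 received PBS. The other 3 received Paro/Neo, the aminoglycoside antibiotics paromomycin and neomycin, at 150 mg/kg by intraperitoneal injection 2 times a day. Both groups were injected for 14 days. As the series' design has it, the question was what is expressed when Paro/Neo dampens Meis1 and Hoxb13, a pair of transcription factors. The labels give neither the sex of the mice nor any sorting of cells, so each value is from whole ventricular tissue, in which fewer cells of a type and less RNA per cell cannot be told apart.

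Retinoic acid is made from vitamin A. Retinol is oxidised to retinaldehyde, and the retinaldehyde dehydrogenases encoded by the Aldh1a genes oxidise that to retinoic acid, which CRABP proteins carry in the cell. Retinoic acid binds the receptors RAR alpha, beta and gamma, which pair with an RXR on DNA sites called retinoic acid response elements, and CYP26 enzymes break it down. In the developing heart the epicardium, the outer cell layer, is a known source of retinoic acid through Aldh1a2, and Wt1 is a transcription factor that marks this layer and is known to be needed for the cells that leave it. Aldh1a2 is also known from mesothelium and stromal cells, and Wt1 from some endothelial cells, so neither gene alone stands for the epicardium in whole tissue.

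Retinoic acid response elements were looked for in the RefSeq promoters (GRCm38.p6) of the members, using the 250 bases before each start, of which the table had 12 windows for 6 of the 9 genes. The search covered direct repeats of the half-site AGGTCA or of its variants, which were GGGTCA, the word AGTTCA and also the word GGTTCA, in any pairing and on both strands. With a spacing of 5 bases, the classical arrangement, the repeat was in 1 of the 12 windows, that of Rarb, and in 0.0883% of all 32851 windows. With spacings of 2 and 1 bases it was in 0 of the 12, against 0.174% and 0.164% of all. The Rarb promoter at chr14:16575477-16575726 (minus strand) and the Aldh1a2 promoter at chr9:71215539-71215788 (plus strand) are shown, 5′ to 3′. They are a receptor gene that carries the element and the synthesis gene with the widest gap between the groups, and the capitals mark the response element in Rarb and a CCAAT box in Aldh1a2.
Rarb: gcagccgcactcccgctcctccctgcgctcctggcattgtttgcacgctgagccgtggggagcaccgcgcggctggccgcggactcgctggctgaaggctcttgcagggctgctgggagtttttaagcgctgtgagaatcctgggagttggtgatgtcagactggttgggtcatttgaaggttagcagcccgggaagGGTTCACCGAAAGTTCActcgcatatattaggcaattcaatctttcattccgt
Aldh1a2: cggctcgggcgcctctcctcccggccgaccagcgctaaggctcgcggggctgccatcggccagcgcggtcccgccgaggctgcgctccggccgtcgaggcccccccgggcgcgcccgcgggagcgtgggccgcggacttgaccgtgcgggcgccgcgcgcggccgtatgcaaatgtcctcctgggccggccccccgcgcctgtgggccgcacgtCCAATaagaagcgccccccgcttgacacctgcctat
The element in Rarb lies 53 to 37 bases before the start, and Rarb is known as a gene that retinoic acid itself induces. The Aldh1a2 window is 77.6% G or C, holds its CCAAT box 36 to 32 bases before the start and has none of the repeats or half-sites searched. CCAAT, on either strand, is in 33.8% of all windows. A match shows only that the letters are there.

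Depth per library, inferred from the steps of the low values, was 9556387 to 15969980 assigned reads or more. Values are in TPM, transcript abundance corrected for gene length and scaled to the same total in every library, so that levels of different genes can be set side by side. Paro/Neo replicate 1 stood apart from the rest, with a mean Pearson correlation with the others across genes of 0.9755 against 0.9814 to 0.9853. The 10 ventricular cardiomyocyte markers were all present and summed to 169130 to 192520 TPM per library. Atrial genes were also present: Myl7, the atrial light chain, ranged from 25.7 TPM in vehicle replicate 1 to 221 TPM in Paro/Neo replicate 1, and the part of atrial tissue in the results below was not tested.

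Among the synthesis enzymes, Aldh1a2 was lower in every treated heart. On GRCm38 (GENCODE M21 annotation) it spans 71215789 to 71296243 of chromosome 9, plus strand. It was at 5.18, 6.96 and 6.56 TPM in vehicle replicates 1 to 3 and at 2.57, 3.70 and 3.14 TPM in Paro/Neo replicates 1 to 3. The lowest vehicle heart was thus above the highest treated heart, and the groups did not overlap. The means were 6.23 TPM ± 0.934 and 3.13 TPM ± 0.565 (SD, n = 3 each), a ratio of treated to vehicle of 0.503. On the log2(TPM + 1) scale used for all fits the change was -0.81 ± 0.16 (SE). These levels rest on 73 to 108 inferred reads per vehicle library and 46 to 56 per treated library. Counting error alone gives an exact Poisson 95% interval of 4.19 to 6.32 TPM for the lowest vehicle heart and of 2.79 to 4.80 TPM for the highest treated heart. These intervals overlap in part, which does not decide whether the 2 read numbers differ, and they were not compared directly. Without Paro/Neo replicate 1, the library that stood apart, the change was -0.71.

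Aldh1a1, the most abundant of the 3 synthesis genes, showed no such gap. It was at 71.3, 59.1 and 52.1 TPM in vehicle and at 53.3, 58.5 and 66.6 TPM in treated hearts. The groups overlapped over nearly their whole range, with means of 60.8 TPM ± 9.73 and 59.5 TPM ± 6.73 and a log2 change of -0.03 ± 0.14 (SE) that was 0.09 without vehicle replicate 1 and 0.05 without Paro/Neo replicate 1. Its close relative Aldh1a7 was listed at only 0.0725 to 0.474 TPM, and 0.953% of the 76-base windows of Aldh1a1 transcripts, the length of a read, also occur in Aldh1a7. Aldh1a3 was low, at 0.718, 0.987 and 1.08 TPM in vehicle and 0.800, 1.14 and 0.318 TPM in treated hearts. With 7 to 26 reads per library it missed the minimum for testing, 1 TPM in at least 3 of 6 libraries, and only Paro/Neo replicate 3, at 7 reads, lay outside the vehicle range on the low side.

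Because Aldh1a1 dominates the family, the summed level of the 3 genes followed it. The sum was 77.2, 67.0 and 59.7 TPM in vehicle and 56.7, 63.4 and 70.1 TPM in treated hearts, and these ranges overlap. Aldh1a2 made up 6.71% to 11.0% of the sum in vehicle and 4.48% to 5.83% in treated hearts. Its share of the family was therefore lower in every treated heart, while the family's total mRNA was not. These are shares of mRNA, and the enzymes' activity was not measured.

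**Figure D1:**
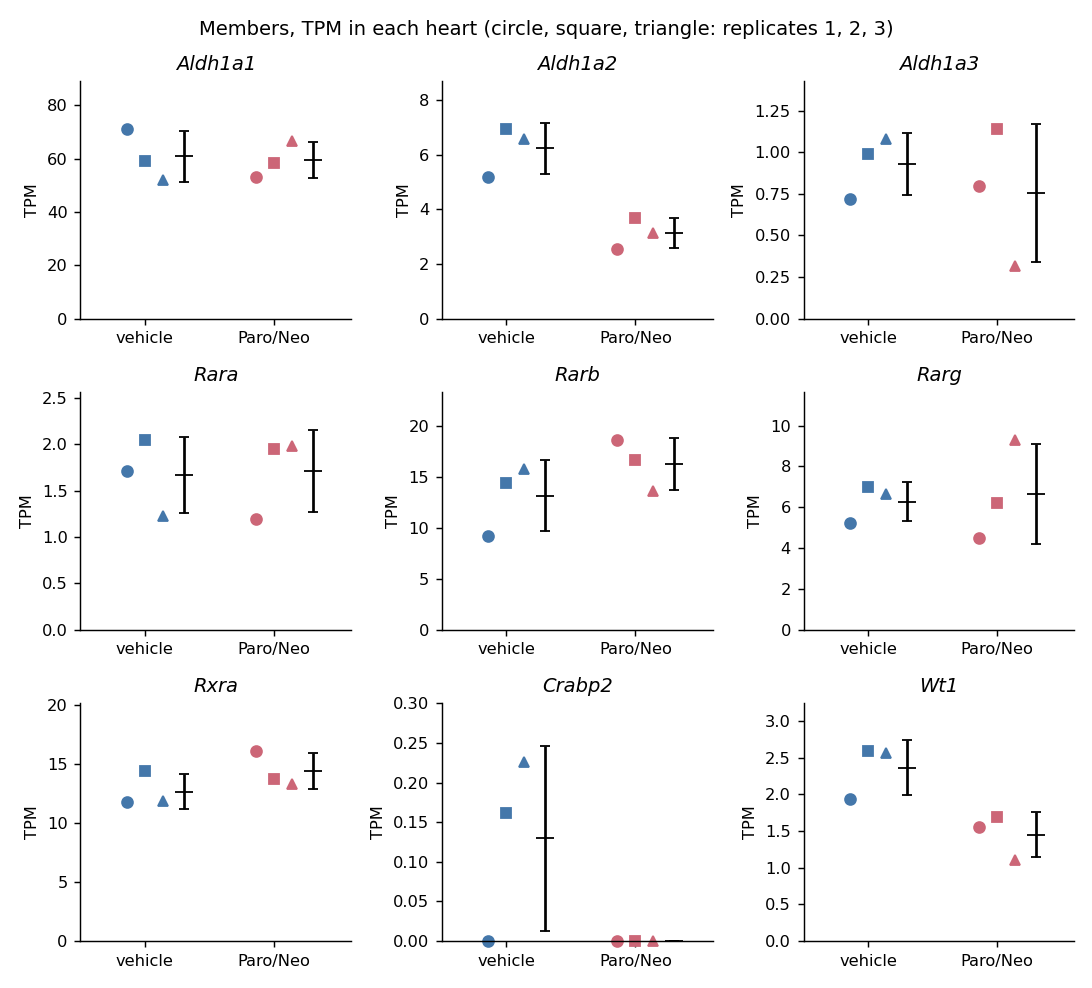
TPM (y axis, from 0, a separate scale for each gene) of the 9 genes in each vehicle (blue) and Paro/Neo (red) heart, with replicates 1, 2 and 3 as circle, square and triangle and the group mean ± SD in black. Aldh1a2 and Wt1 have groups that do not overlap, at 5.18 to 6.96 against 2.57 to 3.70 TPM and 1.94 to 2.59 against 1.10 to 1.69 TPM, while the other 7 overlap.

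Wt1 was also lower in every treated heart, by less. It spans 105126529 to 105173616 of chromosome 2, plus strand. It was at 1.94, 2.59 and 2.57 TPM in vehicle and at 1.56, 1.69 and 1.10 TPM in treated hearts. The groups did not overlap, but vehicle replicate 1 and Paro/Neo replicate 2 differed by less than the range within either group. Mean levels were 2.37 TPM ± 0.372 and 1.45 TPM ± 0.311, a ratio of 0.613, and the log2 change was -0.46 ± 0.16 (SE), or -0.50 without Paro/Neo replicate 1. The libraries held 39 to 55 Wt1 reads in vehicle and 22 to 39 in treated hearts, and the counting intervals of those adjoining hearts, 1.43 to 2.56 TPM and 1.18 to 2.35 TPM, overlap widely. The neighbouring noncoding gene Wt1os had 0 to 2 reads per library, too few to compare. The ratio of Aldh1a2 to Wt1 was 2.68, 2.68 and 2.56 in vehicle hearts and 1.65, 2.19 and 2.86 in treated hearts. At these read numbers the counting error of each ratio is wide. Nothing is therefore read from the closeness of the vehicle ratios or the spread of the treated ones. Paro/Neo replicate 1 had the lowest Aldh1a2 and Paro/Neo replicate 3 the lowest Wt1.

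Other markers of the epicardium and of mesothelium, the sheet of cells that covers organs, were tested as a list of 21 genes without the members. High enough to test were 10, of which 3 stood higher and 7 lower, where 53.7% of all genes tested stood lower. By limma (Benjamini-Hochberg adjusted p under 0.05 over 12409 genes) 0 passed the threshold, against 0.137% of all genes. By limma's voom method on inferred reads 0 passed too, against 0.185%. At an unadjusted p under 0.05 by limma, 3.24% of all genes were higher and 4.37% lower. Of the 10 there was 1 in each direction. Those were Scx, a tendon and progenitor factor, at 6.22 TPM ± 1.15 against 9.68 TPM ± 2.49, and Tcf21, a factor of epicardial derivatives and fibroblasts, at 26.3 TPM ± 2.25 against 21.2 TPM ± 1.90, vehicle first (n = 3 each). Tbx18, an epicardial factor, was at 3.95 TPM ± 0.574 and 3.43 TPM ± 0.398. The median log2 change of the 10 was -0.16, against -0.02 over all genes tested, and was -0.10 without Paro/Neo replicate 1 and -0.07 without vehicle replicate 1. Summed over the 20 listed genes the level was 381 to 517 TPM in vehicle and 352 to 482 TPM in treated hearts, most of it from Clu and C3, which other cells make too.

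The defining mesothelial genes were low and varied between hearts. The 10 listed markers that missed the minimum, among them Upk3b, Msln, Lrrn4, Upk1b and Krt19, together reached 6.86, 2.10 and 4.76 TPM in vehicle and 1.47, 4.40 and 0.894 TPM in treated hearts, from 11 to 96 reads per library. Krt19, a keratin of epithelia and mesothelium, reached 2.58 TPM in vehicle replicate 1 and Rspo1, a secreted Wnt activator, 1.66 TPM in the same heart, levels within or near the range of Wt1 in vehicle. Vehicle replicate 2, where 5 of these 10 genes were at 0 and the sum was the lowest of its group, had the highest Aldh1a2 and the highest Wt1 of all 6 hearts. Within the treated group the sum was highest in replicate 2, where Aldh1a2 and Wt1 were highest too. The ranges of the sum overlap between the groups, and the part of mesothelial cells in the levels of Aldh1a2 and Wt1 was not tested. Muc16 was not analysed here.

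Rarb, the receptor gene with the response element shown above, was not lower. It was at 9.19, 14.4 and 15.8 TPM in vehicle and at 18.7, 16.6 and 13.6 TPM in treated hearts, means of 13.1 TPM ± 3.49 and 16.3 TPM ± 2.56. The groups overlapped, since Paro/Neo replicate 3 was below 2 of the 3 vehicle hearts, and the log2 change was 0.31 ± 0.20 (SE). That size rests on vehicle replicate 1, the lowest heart, without which it was 0.09. Rarb lies on chromosome 14 at 16430839 to 16819156 on the minus strand, and its last part overlaps Top2b on the opposite strand over 34.1% of its exonic bases. The kit keeps strand, but the strand setting of the counting is not given in the sources used here, so reads in that stretch cannot be assigned with certainty. Top2b, a DNA topoisomerase gene, was at 57.4, 61.3 and 62.7 TPM in vehicle and 68.7, 57.7 and 66.8 TPM in treated hearts, with its own highest value also in Paro/Neo replicate 1. Its part in the Rarb values was not tested.

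The other receptors differed by less than or about as much as the spread between mice. Rxra, the general partner of the RARs, was at 11.8, 14.4 and 11.8 TPM in vehicle and 16.1, 13.7 and 13.3 TPM in treated hearts. Vehicle replicate 2 lay above 2 of the 3 treated hearts, and the log2 change of 0.17 ± 0.13 (SE) was 0.09 without Paro/Neo replicate 1 and 0.26 without vehicle replicate 2. Rarg was at 5.21, 6.99 and 6.64 TPM in vehicle and spread from 4.47 TPM in Paro/Neo replicate 1 over 6.20 to 9.31 TPM in replicate 3, so that the treated hearts lay on both sides of the vehicle range. Its log2 change was 0.03 ± 0.23 (SE), with -0.21 when Paro/Neo replicate 3 was left out and 0.25 when replicate 1 was. Rara was the lowest receptor gene, at 1.71, 2.05 and 1.23 TPM in vehicle and 1.20, 1.95 and 1.98 TPM in treated hearts. The log2 change of Rara was 0.02 ± 0.19 (SE) and took the opposite sign in 4 of 13 alternative fits.

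As counted, and with the uncertainty that the overlap with Top2b brings, Rarb made up most of the RAR mRNA. Its share of the summed Rara, Rarb and Rarg level was 57.0% to 66.7% in vehicle and 54.6% to 76.7% in treated hearts. The sum itself was 16.1, 23.5 and 23.7 TPM in vehicle and 24.3, 24.8 and 24.9 TPM in treated hearts, with vehicle replicate 1 well below the other 5. Crabp2, which carries retinoic acid to the nucleus, was all but absent: there was 1 read in each of vehicle replicates 2 and 3 and 0 in the other 4 libraries, where 3 reads, the limit that a count of 0 allows, would be 0.407 TPM in vehicle and 0.412 to 0.515 TPM in treated hearts. A difference in Crabp2 was not detectable at this depth.

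In the fit over all 12409 genes, 0 of the 7 tested members passed the threshold (limma, Benjamini-Hochberg adjusted p under 0.05). Of all genes tested 0.137% did, 0.121% higher and 0.0161% lower. By voom, too, 0 members passed, against 0.185% of all genes. At an unadjusted p under 0.05 there were 2 of 7, Aldh1a2 and Wt1, both lower, where 7.61% of all genes reached that level, 4.37% lower and 3.24% higher. The same 2 did so by voom, against 7.89% of all genes. Wt1 no longer did by limma without vehicle replicate 2, vehicle replicate 3 or Paro/Neo replicate 3. For the same 2 genes all treated hearts lay below all vehicle hearts, as for 8.22% of all genes tested, and for 0 members did they lie above, as for 6.04% of all. Since these genes were gathered with this comparison known, nothing is read from those counts. With 3 mice against 3, an exact two-sided permutation test of a single gene cannot go below p = 0.1, so none is given. As nothing in the labels says more than that the replicates are separate hearts, the errors cover the spread between these mice.

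**Figure D2:**
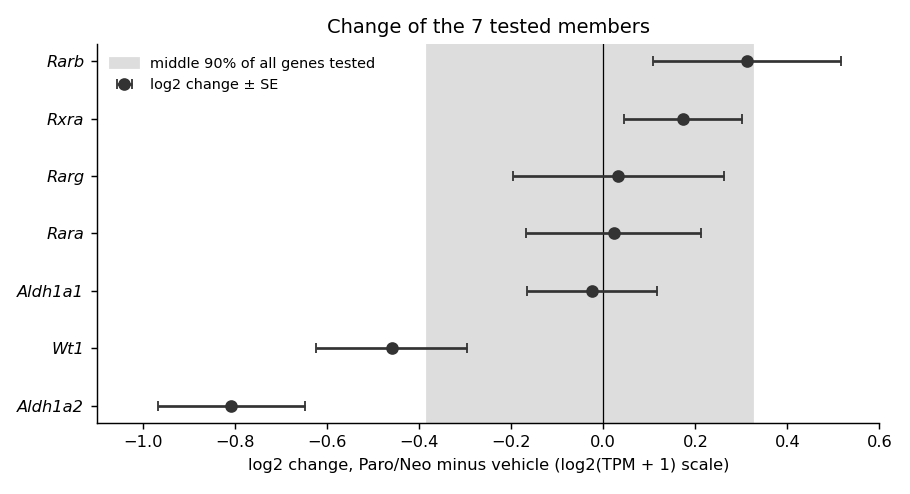
Log2 change, Paro/Neo minus vehicle, on the log2(TPM + 1) scale (x axis) of the 7 tested genes, as point ± SE, with the middle 90% of all 12409 genes tested shaded, from -0.38 to 0.32. Aldh1a2 at -0.81 and Wt1 at -0.46 lie beyond the shaded range, and the 4 receptors and Aldh1a1 lie within it. The group was chosen with Aldh1a2 and Wt1 known to be lower. This scale shrinks the changes of low genes, and with a pseudocount of 0.1 Wt1 was at -0.68 and Aldh1a2 at -0.97.

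The rest of the retinoid pathway was compared as a list of 56 genes without the members, of which 49 were listed and 29 tested. Among the 29 there were 13 higher and 16 lower, and 0 passed by limma or by voom, against 0.137% and 0.185% of all genes. At an unadjusted p under 0.05 by limma there were 1 lower and 0 higher, where 4.37% of all genes were lower and 3.24% higher. The median log2 change of the 29 was -0.02, like that of all genes tested, and 0.06 without Paro/Neo replicate 1. The 1 was Fabp5, a fatty acid-binding protein that also binds retinoic acid, at 80.0, 94.4 and 80.2 TPM in vehicle and 53.1, 76.7 and 66.1 TPM in treated hearts (adjusted p 0.590 by limma). Among genes of uptake and binding, all 4 tested, Fabp5 among them, stood lower. Without Paro/Neo replicate 1 the median of these 4 genes went from -0.15 to 0.0004.

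The step before the Aldh1a enzymes is run by retinol and retinal oxidoreductases. Of 9 tested, 6 stood higher and 3 lower, with 0 past the threshold by limma or by voom and 0 also at an unadjusted p under 0.05 by limma. Rdh10, which makes retinaldehyde from retinol, was at 6.32 TPM ± 1.41 and 6.50 TPM ± 0.402, and Dhrs3, which turns it back, at 61.1 TPM ± 3.57 and 57.8 TPM ± 15.4. The smallest p values belonged to Dhrs4 (88.3 TPM ± 7.81 against 101 TPM ± 5.75) and Rdh13 (29.2 TPM ± 2.53 against 26.6 TPM ± 3.07). Of the partner receptors, Rxrg was the main RXR transcript, at 72.1 TPM ± 4.62 and 69.8 TPM ± 4.06, and made up 70.5% to 75.6% of the summed RXR level in vehicle hearts and 70.1% to 73.3% in treated hearts. Rxrb was at 13.4 TPM ± 1.26 and 12.6 TPM ± 0.581, and the co-repressor gene Nrip1 at 3.55 TPM ± 0.650 and 4.35 TPM ± 0.876.

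Genes known to respond to retinoic acid were listed without Rarb and Crabp2. Of 23 such genes 11 were tested, 4 higher and 7 lower, with 0 past the threshold by limma or by voom and 0 also at an unadjusted p under 0.05 by limma. Their median log2 change was -0.05, and 0.11 without Paro/Neo replicate 1. Cyp26b1, which breaks retinoic acid down and is itself induced by it, varied most, at 0.428, 2.74 and 4.07 TPM in vehicle and 2.47, 3.82 and 11.2 TPM in treated hearts. Those groups overlapped, with the lowest value in vehicle replicate 1 and the highest in Paro/Neo replicate 3, and the log2 change of 0.97 ± 0.56 (SE) had an adjusted p of 0.723 by limma. Vehicle replicate 1 was the lowest of the 6 hearts for both Rarb and Cyp26b1.

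**Figure D3:**
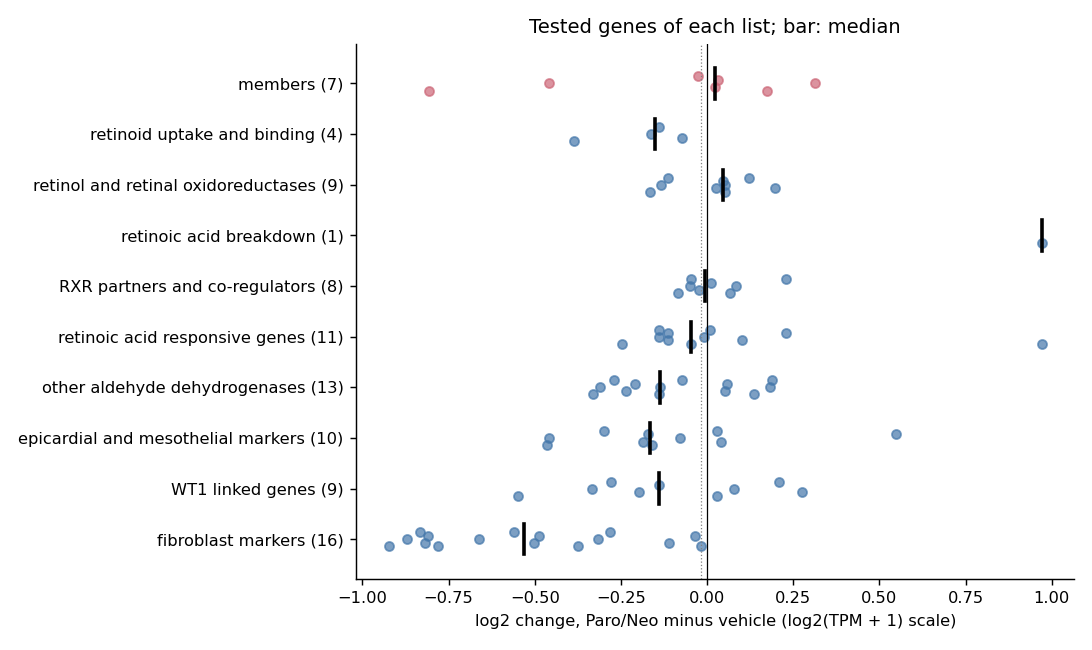
Log2 change, Paro/Neo minus vehicle, on the log2(TPM + 1) scale (x axis) of each tested gene, by list (y axis, number of tested genes in parentheses), with the members in red, a black bar at each list's median and a dotted line at the median of all genes tested, -0.02. Tested retinoid pathway genes other than the members lie between -0.39 (Fabp5) and 0.97 (Cyp26b1), and all 16 fibroblast markers lie below 0.

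Markers of other cell types stood on both sides. Of all genes tested 53.7% stood lower, and at an unadjusted p under 0.05 by limma 4.37% were lower and 3.24% higher. For fibroblasts 16 of 16 stood lower, at a median log2 change of -0.53 (-0.36 without Paro/Neo replicate 1), and 0 passed by limma or by voom, 10 being lower at an unadjusted p under 0.05. Their summed level was 4153.5 to 4361 TPM in vehicle and 3174 to 4009 TPM in treated hearts, and none was at 0. Most of that sum came from Dcn (1809 to 1867 against 1726 to 1891 TPM) and Gsn (981 to 1121 against 529 to 1028 TPM), vehicle first, whose groups overlapped. The smallest p values were those of the collagen gene Col5a2 (20.3 TPM ± 0.126 against 10.9 TPM ± 2.91) and of Fstl1, a secreted glycoprotein (147 TPM ± 11.2 against 99.6 TPM ± 14.2). Pdgfra, which defines cardiac fibroblasts, was at 28.6, 29.1 and 30.8 TPM in vehicle and 21.3, 31.6 and 29.9 TPM in treated hearts. Aldh1a2 relative to Pdgfra was 0.181 to 0.239 in vehicle and 0.105 to 0.120 in treated hearts, whereas relative to Col5a2 it was 0.256 to 0.345 and 0.267 to 0.319. The groups thus did not overlap for the ratio to Pdgfra and overlapped for the ratio to Col5a2. Col5a2 had a log2 change of -0.87, close to that of Aldh1a2, so the overlap follows from that choice. Ratios to Tcf21 (0.185 to 0.277 against 0.133 to 0.160), Tbx18 (1.154 to 1.96 against 0.661 to 1.146) and Aldh1a1 (0.07265 to 0.126 against 0.0471 to 0.0631) did not overlap, vehicle first. Pdgfra and Col5a2 were picked as references after their values were seen, the others with earlier results of these data known. Aldh1a2 was itself chosen with groups that do not overlap, so the gaps in its ratios follow largely from that choice. For Tbx18 the nearest hearts stood at 1.154 and 1.146, on 96 and 56 Aldh1a2 reads, a gap that is small beside the counting error. Nothing is therefore read from whether these ratios overlap.

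Heart by heart, the log2 difference of Aldh1a2 from its mean in vehicle was -1.01, -0.61 and -0.80 in Paro/Neo replicates 1 to 3, and the median of the fibroblast markers stood at -0.67, -0.26 and -0.44. Both were thus lowest in replicate 1 and highest in replicate 2. Wt1 had another order, with -0.39, -0.32 and -0.68. Of the endothelial markers 11 of 14 stood lower, against 53.7% of all genes tested, at a median log2 change of -0.25 (-0.13 without Paro/Neo replicate 1). By limma or by voom 0 passed the threshold, and 3 were lower at an unadjusted p under 0.05 by limma, against 4.37% of all genes. Medians by heart of these markers were -0.40, -0.13 and -0.04. Their summed level was 4330.4 to 4798 TPM in vehicle and 3625 to 4221 TPM in treated hearts. Most of it came from Fabp4, at 3650 to 4011 TPM in vehicle and 3082 to 3564 TPM in treated hearts. Smooth muscle and pericyte markers stood lower for 10 of 12, at a median of -0.15 (-0.07 without Paro/Neo replicate 1). Macrophage markers went the other way, with 10 of 11 higher at a median of 0.20 (0.11 without Paro/Neo replicate 3). Of the ventricular cardiomyocyte markers 6 stood higher and 4 lower, at a median of 0.01. For the 5 tested atrial markers the median was 0.42, but -0.32 without vehicle replicate 1 and -0.20 without Paro/Neo replicate 1. In these 4 lists 0 genes passed by limma or by voom, and at an unadjusted p under 0.05 by limma there were 1 lower for smooth muscle, 2 higher for macrophages, 1 higher for cardiomyocytes and 0 for the atrial genes. The part of these cell types in the levels of Aldh1a2 and Wt1 was not tested.

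**Figure D4:**
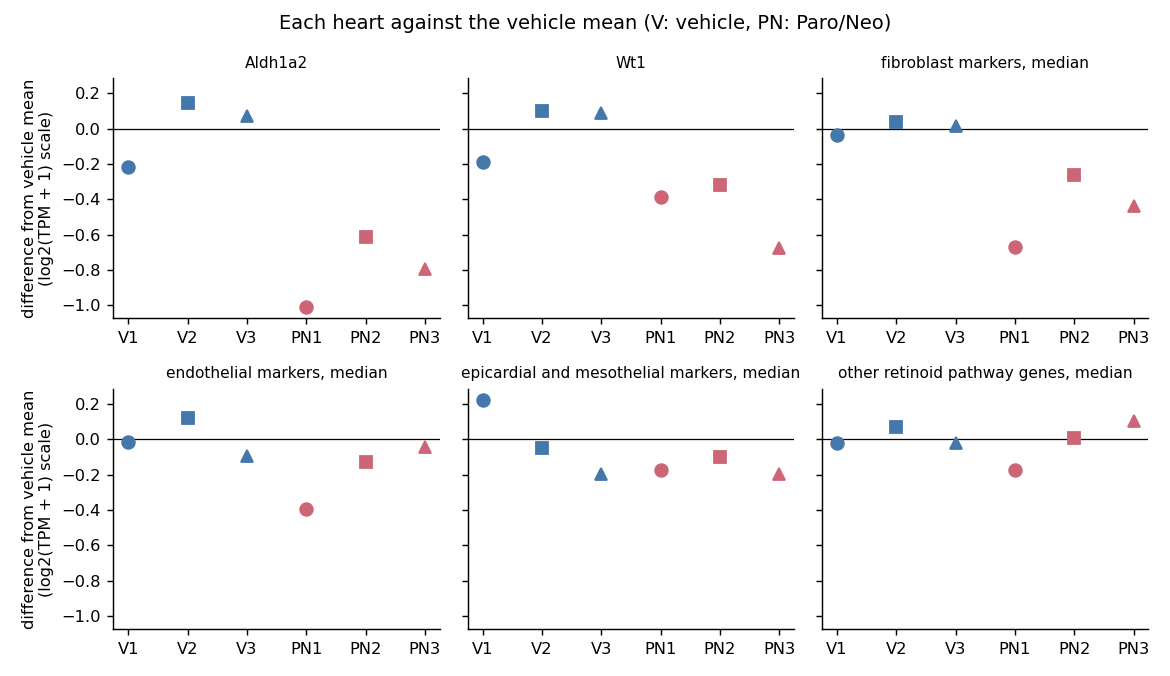
Difference of each heart from the vehicle mean on the log2(TPM + 1) scale (y axis) for Aldh1a2, for Wt1 and for the median of the tested genes of 4 lists, with vehicle (V, blue) and Paro/Neo (PN, red) hearts along the x axis. The treated hearts lie below all vehicle hearts for Aldh1a2, Wt1 and the fibroblast markers, and overlap them for the endothelial, epicardial and retinoid lists.

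Ordered by level in vehicle hearts, the members ran Aldh1a1, Rarb, Rxra, Rarg, Aldh1a2, Wt1, Rara, Aldh1a3 and Crabp2. The ranges of Rarb and Rxra, of Rarg and Aldh1a2, and of Wt1 and Rara overlapped, so those neighbours did not differ beyond their spread. In treated hearts Aldh1a2, at 2.57 to 3.70 TPM, was below the whole range of Rarg, at 4.47 to 9.31 TPM, and Rara and Wt1 changed places with overlapping ranges.

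Outside the members, the 5 tested genes most like Aldh1a2 by Pearson correlation of log2(TPM + 1) over the 6 libraries were Ppic, Sept4, Tspan18, Fstl1 and Foxred1, at r of 0.993 to 0.984. For each of these 5 the treated hearts lay below all vehicle hearts, as for 8.22% of all genes tested. They were picked for likeness to Aldh1a2, whose groups do not overlap, so this follows largely from the choice. Ppic, a cyclophilin, was at 76.3 TPM ± 8.06 against 55.6 TPM ± 3.95, and Fstl1 is on the fibroblast list. For Wt1 they were Tmed8, Tspan2, Top1mt, Postn and Nuf2, at r of 0.998 to 0.977. All but Tspan2 had groups that did not overlap, which again follows largely from the choice. Postn, a matrix protein that is also on the fibroblast list, was at 53.6, 71.7 and 83.5 TPM in vehicle and 48.1, 47.8 and 34.4 TPM in treated hearts, and Nuf2, a kinetochore gene, at 1.46 TPM ± 0.216 against 0.753 TPM ± 0.155. The correlations are taken over hearts that also differ by group and are given as a description only.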

How the data were processed

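RNA-seq of ventricles from 3 vehicle and 3 Paro/Neo mice was used. The authors deposited TPM values, which sum to the same total in each library. The submitters' processing notes name STAR 2.5.3a, featureCounts of Subread, edgeR and FastQC 0.11.5, and mm10 as the build, with no roles stated. Annotation, strand setting and filter were not given in the sources used here. Per the labels' protocols the libraries were stranded mRNA libraries, from RNA with an integrity number above 7. Sample titles gave the groups and replicate numbers, which the text and figures use. For the treated hearts the deposited value columns carry other numbers.

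TPM keeps no depth, but ratios between libraries gave whole reads (within 0.001) for 17574 of 17574 features above 0. These are lower estimates, and intervals and limits made from them cover counting error only. Values were transformed to log2(TPM + 1). A gene needed 1 TPM in at least 3 libraries, which 12409 met, and these were fitted with limma 3.58.1 (R 4.3.3, trend, two-sided) and adjusted by Benjamini-Hochberg over all of them, with a threshold of 0.05. The fit was tested on simulated data. Alternatives were another pseudocount, other filters, scaling, array weights, a replicate block, voom on inferred reads and leaving out each library. The members were chosen, and the lists drawn up, with earlier results of these data known. The genes named are the members, from each list those past the threshold or else the 2 of smallest p, genes that define a list, and the 5 genes most like Aldh1a2 and Wt1, except for an item that is not reported here. Others, named after their values were seen, are Top2b, Rspo1, Wt1os, Aldh1a7, Rxrg, Clu, C3, Fabp4, Dcn and Gsn. Gene positions are from GENCODE M21 and promoters from RefSeq, both on GRCm38, which is mm10.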

Additional observations from a re-analysis of the deposited data

How the results depend on the processing

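Under all 13 alternatives Aldh1a2 stayed lower, with log2 changes of -0.98 (voom) to -0.67 (array weights), and so did Wt1, at -0.68 (pseudocount of 0.1) to -0.35 (without Paro/Neo replicate 3). The groups of Aldh1a2 and of Wt1 do not overlap, so leaving out a library, array weights or another pseudocount could not turn their sign. Other filters and the replicate block return the same change as the main fit. Nothing is therefore read from the unchanged sign of these genes. Rarb stayed higher, at 0.09 to 0.45, and Rxra, at 0.09 to 0.26. The sign turned for Rara in 4 alternatives and for Aldh1a1 and Rarg in 2 each. Called members, retinoid genes and epicardial markers remained at 0 under each alternative. Of all genes, 15 higher and 2 lower were called, against 5 and 1 with no filter on low values, 4 lower with array weights, and 4 to 23 higher and 0 to 4 lower on leaving out 1 library. With a replicate block 25 were higher, but same-numbered libraries did not deviate together (r of -0.0528, -0.0356 and -0.122), so the titles' numbers were not taken as pairs. The scaling alternative moved Aldh1a2 to -0.79. Depth limits Aldh1a3 and Crabp2 most, at 0 to 26 reads per library.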

Other observations

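Among other aldehyde dehydrogenases, enzymes of the wider family that act mostly on aldehydes of metabolism, 13 of 17 were high enough to test, 5 higher and 8 lower, at a median log2 change of -0.14 and with 0 past the threshold by limma or by voom (0 also at an unadjusted p under 0.05 by limma). Aldh18a1, an enzyme of proline synthesis, had the smallest p, at 4.40, 6.58 and 4.50 TPM in vehicle and 3.54, 4.07 and 4.12 TPM in treated hearts, and Aldh5a1, of GABA breakdown, was at 19.7 TPM ± 1.95 against 16.8 TPM ± 3.68. Without Paro/Neo replicate 1 the list's median was -0.01.

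Of 15 genes linked to WT1, 9 were tested, 4 higher and 5 lower, at a median log2 change of -0.14 that was 0.01 without Paro/Neo replicate 1. By limma and by voom 0 passed the threshold, and by limma 1 was higher and 2 lower at an unadjusted p under 0.05. Ets1, a transcription factor of blood vessels, was at 46.9, 57.9 and 50.8 TPM in vehicle and 41.4, 40.3 and 40.7 TPM in treated hearts, and Vcam1, an adhesion molecule of epicardium, endothelium and inflamed tissue, went the other way, at 19.5, 22.1 and 20.3 against 24.2, 25.6 and 25.7 TPM. Neither pair of groups overlaps. All treated hearts lay below all vehicle hearts for 8.22% of all genes tested and above them for 6.04%. In the same hearts 15 of 15 interferon response genes were higher, where 5743 of all 12409 genes tested were. By limma 6 of the 15 were higher past the threshold, against 0.121% of all genes. That list, too, was drawn up with earlier results of these data known.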
